A study of Homo sapiens with 6 samples.

Results

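Galectins are small lectins that bind beta-galactoside sugars on glycoproteins and glycolipids. They are made in the cytosol, leave the cell without a signal peptide, and cross-link surface receptors and matrix proteins outside it. Inside the cell some of them mark damaged endosomes and lysosomes by binding the glycans exposed there. Galectin-3 staining is used in the pathology of thyroid nodules, where it is a known marker of papillary carcinoma, and galectin-1 is also known from thyroid tumours. The 6 genes described here are LGALS1, LGALS2, LGALS3, LGALS8 and LGALS9, which encode galectins, and LGALS3BP, which encodes a secreted glycoprotein that galectins bind. They were chosen by name, with results of this comparison already known, and are 6 of 18132 genes measured. They are covered by 17 of the 44988 probe sets (groups of short probes for a transcript) that name a single gene.

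RNA was measured on 6 Affymetrix arrays, 1 array per sample. In 3 samples the cells had received a lentivirus carrying a control short hairpin RNA (shRNA), and in the other 3 a lentivirus carrying an shRNA against SHCBP1, whose product binds the adaptor SHC1. All 6 were grown in the same medium with serum and carry the label TPC-1 (a cell line from a human papillary thyroid carcinoma), although the extraction text names DLD1, a line from a colorectal carcinoma. The labels name no clone, no other shRNA against SHCBP1 and no rescue, so the knockdown and any off-target action of the hairpin cannot be told apart, and they do not say that the samples were separate cultures, so errors may be technical. In the deposited log2 values the median of every probe set over the 6 arrays is 0 (within 1e-05). They compare arrays and give no expression level, so neither the order of abundance of the galectins nor the presence of lineage markers can be read from them. One consequence of the centring is that the inner value of each group has the same size and opposite sign where the groups of a probe set do not overlap.

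SHCBP1 itself was higher in the controls (0.72, 0.76 and 0.71) than with its shRNA (-0.95, -0.76 and -0.72), the direction the labels call for. Of all genes, 41.0% passed limma's moderated test at a Benjamini-Hochberg adjusted p of 0.05 (22.0% higher and 19.0% lower with the SHCBP1 shRNA), and in 50.0% the groups did not overlap. The median difference over all genes was 0.022 on the log2 scale. The poly-A control transcripts that are spiked into the RNA read higher with the SHCBP1 shRNA, by 0.43 ± 0.04 (SE of the difference, log2). Scaling to them lowers every difference by that amount, so a difference here is always relative to the bulk of the genes. The 3′ to 5′ ratio, a sign of RNA quality, differed by -0.077 ± 0.018 log2 for ACTB and by -0.0059 ± 0.016 log2 for GAPDH (SE). For ACTB the groups did not overlap (0.035, 0.050 and 0.048 in the controls, -0.056, 0.0016 and -0.046 with the SHCBP1 shRNA), and for GAPDH they did. Precision is limited by having 3 arrays in each group.

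The galectin genes went different ways. LGALS1 was 4.24-fold higher and LGALS3BP 2.06-fold lower in the SHCBP1 shRNA arrays. LGALS8 was slightly lower on average, with probe sets that differed among themselves, and LGALS2, LGALS3 and LGALS9 differed by less than 0.1 on the log2 scale. Whether the genes with small differences were detected at all cannot be read from centred values. Of the 6 genes, 1 passed the threshold as higher and 2 as lower, beside the 22.0% and 19.0% of all genes given above. The groups did not overlap in 4, of which 1 was higher and 3 lower, beside 27.3% and 22.7% of all genes. Since the genes were chosen with this comparison known, nothing is read from these counts and no p-value is given for them. In RNA from a whole culture, a change in every cell and a change in the share of cells that express a gene cannot be told apart.

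LGALS1 encodes galectin-1, a prototype galectin with a single carbohydrate-binding domain that acts as a dimer. The 3 control arrays read -1.03, -1.07 and -1.03 (centred log2 values) and the 3 SHCBP1 shRNA arrays 1.06, 1.03 and 1.03. The groups lie far apart and the replicates of each are close together, with an SD of 0.023 in the control and 0.016 in the SHCBP1 shRNA arrays. The difference was 2.08 ± 0.03 (limma's moderated SE, n = 3 per group; the 95% confidence interval is 2.01 to 2.16). By size of rise it stood at rank 3 of the 18132 genes. The value rests on 1 probe set, whose name carries no mark for probes shared between transcripts or genes. Spike-in scaling leaves a difference of 1.65.

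LGALS2 encodes galectin-2, another prototype galectin, known mainly from the gut. The control arrays read -0.030, -0.0061 and 0.0061, and the SHCBP1 shRNA arrays 0.059, -0.063 and 0.18. The groups overlap, and the highest and the lowest value are both in the SHCBP1 shRNA group. The difference was 0.070 ± 0.061 (SE), with a 95% confidence interval of -0.073 to 0.21, so its sign was not settled. The SD was 0.019 in the control and 0.12 in the SHCBP1 shRNA arrays. With spike-in scaling the difference was -0.36.

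LGALS3 encodes galectin-3, the chimeric galectin, which joins a carbohydrate-binding domain to a long flexible tail and forms oligomers. Values of 0.058, 0.0062 and 0.048 with the control shRNA stood against -0.074, -0.0062 and -0.060 with the SHCBP1 shRNA. The groups do not overlap, but control array 2 and SHCBP1 shRNA array 2 are separated by only the small gap around 0. The difference was -0.084 ± 0.036 (SE, 95% confidence interval -0.17 to -0.0010), and the gene did not pass the threshold over all genes. With spike-in scaling the difference was -0.52. Its value rests on 1 probe set.

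LGALS3BP encodes the galectin-3-binding protein, also called Mac-2-binding protein, a heavily glycosylated secreted protein without a galectin domain. The control arrays gave 0.51, 0.48 and 0.59, and the SHCBP1 shRNA arrays -0.49, -0.57 and -0.48. All control values lie above all SHCBP1 shRNA values, with an SD of 0.054 and 0.046 within the groups. The difference was -1.04 ± 0.04 (SE, 95% confidence interval -1.14 to -0.94), at rank 147 by size of fall among all genes. Its 1 probe set carries the ending _s_at, which Affymetrix gives to probes shared between transcripts or genes, and the annotation lists no other gene for it.

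**Figure D1:**
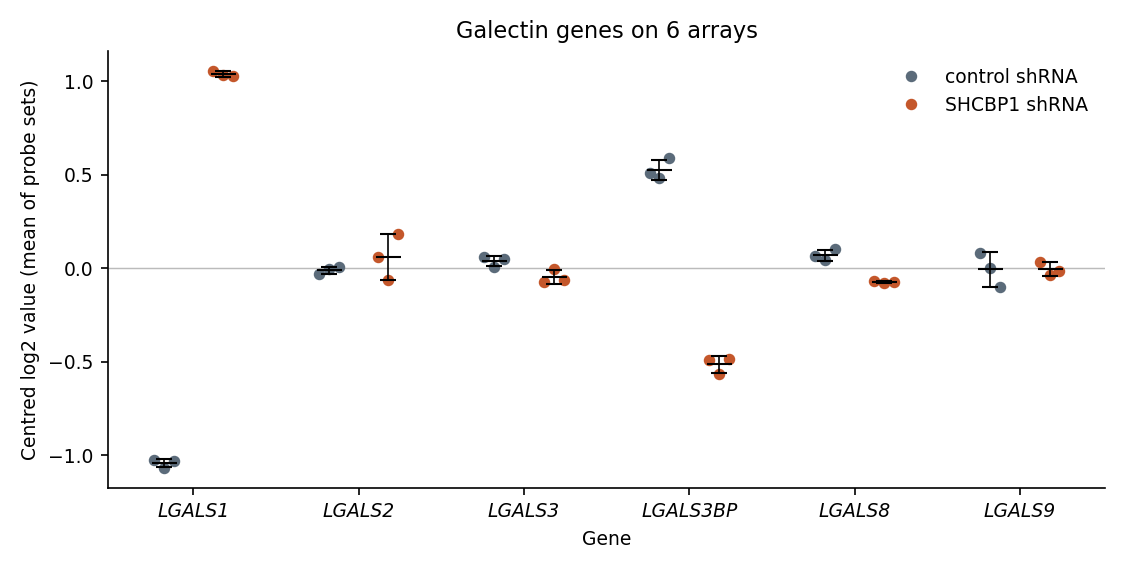
Centred log2 value (vertical axis, mean of a gene's probe sets) of the 6 genes (horizontal axis) on each array; grey points are the 3 control shRNA arrays, orange points the 3 SHCBP1 shRNA arrays, and black bars the mean ± SD of each group. LGALS1 lies near -1.04 in the control and 1.04 in the SHCBP1 shRNA arrays, LGALS3BP goes from 0.53 to -0.51, and the other 4 genes lie close to 0 in both groups.

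LGALS3BP is known as an interferon-inducible gene, and its promoter is shown because it is the gene with the largest fall of the 6. The 250 bases before its start in RefSeq (GRCh38.p14, chr17:78979924-78980173, minus strand), written 5′ to 3′ with a match to a pair of GAAA words, any 2 bases apart, in capitals, are:
LGALS3BP: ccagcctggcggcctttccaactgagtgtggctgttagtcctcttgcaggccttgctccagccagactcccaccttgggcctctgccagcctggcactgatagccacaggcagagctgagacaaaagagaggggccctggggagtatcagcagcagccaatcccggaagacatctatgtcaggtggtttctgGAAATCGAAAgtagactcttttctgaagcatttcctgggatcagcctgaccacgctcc
This pattern is the core of the interferon-stimulated response element, and it was chosen for the search after the sequence was seen. The match lies from -58 to -49 relative to the start. On either strand, 3.02% of the 35116 start windows in the RefSeq table hold this pattern in their 250 upstream bases. LGALS1 has no window there, so it was not searched for this or any other pattern. Of the 8 galectin windows searched (LGALS2, LGALS3, LGALS3BP, LGALS9 and LGALSL with 1 each and LGALS8 with 3), only that of LGALS3BP holds this pattern. The AP-1 pattern TGANTCA (6.57% of all windows) and the E-box CACGTG (6.34%) are in 0 of the 8 windows. The TATA pattern TATAAA (10.7%) is in 1, a start of LGALS8, and the GC box GGGCGG (42.6%) in 3, those of LGALS3, LGALSL and another start of LGALS8. None of these patterns contains another. A match describes letters only.

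LGALS8 encodes galectin-8, a tandem-repeat galectin with a pair of different carbohydrate-binding domains, which binds integrins at the surface and recruits the autophagy receptor CALCOCO2 to damaged vesicles. Averaged over its 11 probe sets, it read 0.063, 0.043 and 0.10 with the control shRNA and -0.067, -0.078 and -0.071 with the SHCBP1 shRNA. The groups do not overlap on this average, and the difference of -0.14 ± 0.03 (SE) was small, 1.10-fold. The average joins probe sets that gave different values. The groups were apart in 7 of the 11, all lower with the SHCBP1 shRNA, beside 22.5% of all probe sets apart in that direction, and overlapped in 4. The probe sets read the same gene on the same arrays, so they are not independent of one another. In 11751671_a_at the gap between the groups was small, from -0.0099 to 0.0099.

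The largest LGALS8 difference was -0.44 ± 0.04 (SE), in probe set 11758955_at. It read 0.19, 0.24 and 0.27 with the control shRNA and -0.19, -0.22 and -0.21 with the SHCBP1 shRNA, clearly apart. It is the only LGALS8 probe set without a suffix for shared probes. Probe sets 11740518_a_at and 11719837_a_at followed with -0.34 ± 0.04 and -0.31 ± 0.04 (SE). The ending _a_at marks probes that match several transcripts of the same gene.

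The other 8 LGALS8 probe sets lay between -0.17 and 0.062. The highest, 11719835_a_at, read -0.056, -0.051 and 0.0019 with the control shRNA and 0.068, -0.0019 and 0.015 with the SHCBP1 shRNA, so its groups overlapped. The probe sets therefore spanned 0.50 on the log2 scale. Among the 300 genes with at least 8 probe sets, the median span was 0.39 and 104 spanned more than LGALS8, so a span of this size is common on these arrays. The table does not give the position of the probes, and which LGALS8 transcripts each probe set reads was not tested. LGALS8-AS1, which lies within LGALS8 on the opposite strand, differed by 0.022 ± 0.059 (SE).

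LGALS9 encodes galectin-9, a tandem-repeat galectin known as a ligand of the immune receptor HAVCR2 (TIM-3). Its means were 0.083, 0.0020 and -0.10 with the control shRNA, and 0.035, -0.037 and -0.016 with the SHCBP1 shRNA. The control arrays surround the SHCBP1 shRNA arrays, and the difference was 0.00011 ± 0.052 (SE, 95% confidence interval -0.12 to 0.12). Both of its probe sets end in _x_at, a mark for probes that may also bind other genes, and they gave -0.015 and 0.015. In the control arrays the spread came from 11746558_x_at, which read 0.17, -0.00086 and -0.23. In the SHCBP1 shRNA arrays it came from 11716406_x_at, which read 0.069, -0.082 and -0.0071. A further probe set naming LGALS9 together with its near-identical copies LGALS9B and LGALS9C was left out of the mean; it differed by 0.054 ± 0.077 (SE).

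**Figure D2:**
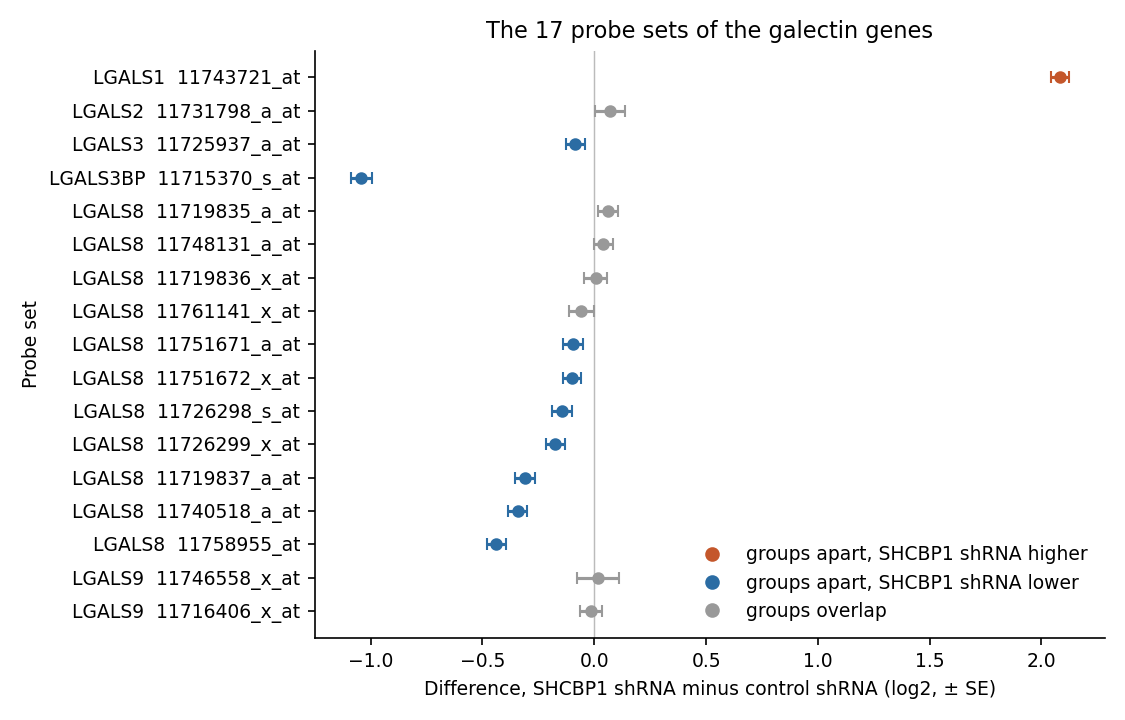
Difference between SHCBP1 shRNA and control shRNA arrays (horizontal axis, log2, bars are the moderated SE) for each of the 17 probe sets (vertical axis); orange and blue mark probe sets whose groups do not overlap, higher and lower with the SHCBP1 shRNA, and grey those that overlap. LGALS1 stands alone at 2.08 and LGALS3BP at -1.04, and the 11 probe sets of LGALS8 spread from -0.44 to 0.062.

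In order of difference the genes ran LGALS1, LGALS2, LGALS9, LGALS3, LGALS8 and LGALS3BP. LGALS1 and LGALS3BP each lay apart from its neighbour in that order by many standard errors. The values of LGALS2, LGALS9, LGALS3 and LGALS8 had 95% confidence intervals that all overlapped one another. Among all genes a difference of at least 2-fold was seen in 57 rises and 164 falls, and the median size of a difference was 0.11 on the log2 scale. LGALS1 and LGALS3BP were beyond 2-fold, LGALS8 was slightly above the median size, and LGALS2, LGALS3 and LGALS9 were below it.

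**Figure D3:**
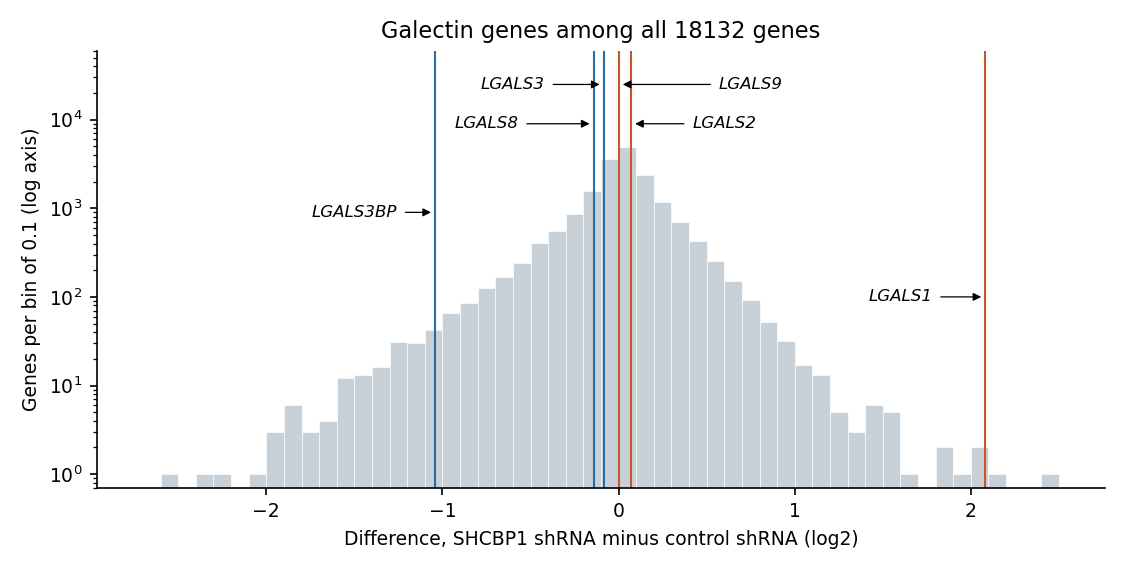
Number of genes (vertical axis, log scale) in bins of 0.1 of the difference between SHCBP1 shRNA and control shRNA arrays (horizontal axis, log2) over 18132 genes; vertical lines mark the 6 galectin genes, orange above 0 and blue below. LGALS1 lies at 2.08 in the far right tail and LGALS3BP at -1.04 in the left, while the other 4 lie in the tall bins near 0.

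The 5 genes whose values over the 6 arrays were nearest to those of LGALS1, by root mean square difference, were CCN1 (0.033), CCN2 (0.099), RGS2 (0.10), MSX1 (0.12) and H2AC6 (0.13). Their differences between the groups ran from 1.87 for MSX1 to 2.19 for H2AC6. For LGALS3BP the nearest were RAB28 (0.028), NT5DC2 (0.032), NT5DC1 (0.032), CORO1A (0.035) and ABCF2 (0.035), with differences from -1.04 to -1.10. With 6 arrays in 2 groups this measure finds genes with a difference of like size and says nothing more.

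Of the genes beside the members on the chromosome, by the RefSeq gene table (GRCh38.p14), none differed as far as LGALS1 or LGALS3BP, and their differences ran from -0.92 to 0.74. LGALS1 and LGALS2 lie near each other on chromosome 22, with 2 tested genes between them: GGA1, which fell by 0.30 ± 0.04 (SE), and SH3BP1, at -0.12 ± 0.05 (SE). On the far side of LGALS1, NOL12 was at 0.044 ± 0.044 (SE) and TRIOBP, an actin-bundling protein gene, fell by 0.68 ± 0.05 (SE; limma, Benjamini-Hochberg adjusted p = 1.98e-05). The genes on either side of LGALS3BP, TIMP2 and CANT1, fell by 0.31 ± 0.03 and 0.27 ± 0.04 on the log2 scale (SE). The 2 probe sets of TIMP2 differed, at -0.59 and -0.022. Further out, C1QTNF1 was lower (-0.21 ± 0.05, SE) and USP36 was higher (0.12 ± 0.04, SE). CYTH1 and ENGASE did not pass the threshold (-0.032 and -0.031). GPR137B near LGALS8 fell by 0.92 ± 0.08 (SE), the kinase gene NLK near LGALS9 rose by 0.74 ± 0.03 (SE), and CDC42EP1 near LGALS2 fell by 0.56 ± 0.05 (SE), with Benjamini-Hochberg adjusted p-values from limma of 7.84e-05, 3.08e-06 and 9.79e-05. Of the 32 genes within 3 places of a member, 5 rose and 12 fell, 53.1% beside 41.0% of all genes.

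Of 12 further galectin genes listed, 6 had a probe set of their own, 4 shared theirs and 2 had none named here. Of the 6, 1 rose and 0 fell (16.7% called, beside 41.0% of all genes), and their median difference was 0.043. The gene that rose was LGALSL, which encodes a galectin-related protein that lacks the sugar-binding residues. Its means were -0.27, -0.45 and -0.39 with the control shRNA, and 0.32, 0.28 and 0.35 with the SHCBP1 shRNA, with the groups well apart. It rose 1.61-fold, by 0.69 ± 0.05 (SE; limma, Benjamini-Hochberg adjusted p = 3.00e-05), and its 2 probe sets gave 0.43 and 0.94. The intestinal galectin gene LGALS4 was at -0.075 ± 0.049 (SE), the placental genes LGALS13 and LGALS14 at 0.12 ± 0.08 and 0.10 ± 0.06 (SE), LGALS12 at -0.044 ± 0.054 (SE) and CLC, the Charcot-Leyden crystal protein gene, at -0.018 ± 0.072 (SE).

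The promoter of LGALSL is shown beside that of LGALS3BP, since LGALSL is the other galectin-related gene in the promoter table with a difference above 0.5 in size. Its 250 bases before the start (RefSeq, GRCh38.p14, chr2:64453912-64454161, plus strand), 5′ to 3′, have 3 matches to the GC box in capitals, read on the other strand (CCGCCC):
LGALSL: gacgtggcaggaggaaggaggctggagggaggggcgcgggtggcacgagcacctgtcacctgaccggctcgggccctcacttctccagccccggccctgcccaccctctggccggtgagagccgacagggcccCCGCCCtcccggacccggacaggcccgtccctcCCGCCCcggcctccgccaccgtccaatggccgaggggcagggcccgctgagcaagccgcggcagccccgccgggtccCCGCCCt
The stretch is 77.6% G and C, against 56.8% for that of LGALS3BP.

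Galectins bind N-acetyllactosamine, which Golgi enzymes build on branched N-glycans and on O-glycans. Of 24 genes for these steps or for other changes to the same glycans, 4 rose and 7 fell (45.8% called, beside 41.0% of all genes). Their median difference was -0.012. The list also holds genes such as ST6GAL1 that do not build this sugar, so the count does not describe its synthesis alone. MGAT4A, an N-glycan branching enzyme gene, rose by 0.52 ± 0.03 (SE; limma, Benjamini-Hochberg adjusted p = 1.94e-05) and SLC35A2, the UDP-galactose transporter gene, rose by 0.31 ± 0.03 (SE; adjusted p = 0.000231). With spike-in scaling MGAT4A is at 0.082 and no longer passes, and SLC35A2 turns to -0.12. B4GALT5, a galactosyltransferase gene, fell by 0.61 ± 0.04 (SE; limma, Benjamini-Hochberg adjusted p = 1.54e-05), and B3GNT3, an N-acetylglucosaminyltransferase gene, fell by 0.49 ± 0.03 (SE; adjusted p = 2.12e-05). MGAT5, whose branches are the best known galectin-3 ligands, had a 95% confidence interval of -0.16 to 0.19, and ST6GAL1, whose sialic acid blocks galectin-1 binding, one of -0.062 to 0.20.

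Of 31 tested genes for surface, matrix and intracellular proteins that galectins bind or that sit beside such proteins, 5 rose and 17 fell. That is 71.0% called, beside 41.0% of all genes, and the median difference was -0.15 beside 0.022. Some of these genes were known to differ when the list was written. CD151, a tetraspanin that associates with laminin-binding integrins, fell by 1.46 ± 0.03 on the log2 scale (SE; limma, Benjamini-Hochberg adjusted p = 3.78e-07), which is 2.76-fold, and its 5 probe sets ran from -1.54 to -1.41. ITGA6, a laminin-binding integrin chain gene, fell by 1.14 ± 0.04 (SE; adjusted p = 1.49e-06 from limma with Benjamini-Hochberg adjustment). LAMC1, a laminin chain gene, rose by 0.77 ± 0.03 (SE; limma, Benjamini-Hochberg adjusted p = 2.10e-06). NRP1, a co-receptor that binds galectin-1, rose by 0.53 ± 0.04 (SE; adjusted p = 5.40e-05), with probe sets from -0.064 to 1.24, and with spike-in scaling it is at 0.098 and no longer passes. HAVCR2, the galectin-9 receptor gene, had a 95% confidence interval of -0.19 to 0.050.

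Galectins 3, 8 and 9 mark damaged lysosomes, which are then repaired or removed by autophagy. Of 20 tested genes for this response 6 rose and 2 fell, 40.0% called and so close to the 41.0% of all genes, with a median of 0.041. GABARAPL1, which encodes an ATG8-family protein of the autophagosome, rose 2.30-fold, by 1.20 ± 0.04 (SE, limma, Benjamini-Hochberg adjusted p = 1.11e-06). Its probe sets ran from 0.34 to 1.56, and without those ending in _s_at or _x_at the rise was 0.89. PRKAA1, an AMPK catalytic subunit gene, rose by 0.79 ± 0.05 (SE; adjusted p = 9.90e-06), with probe sets from 0.044 to 1.45. The autophagy kinase gene ULK1 fell by 0.18 ± 0.04 (SE; limma, Benjamini-Hochberg adjusted p = 0.00408) and the lipid kinase gene PIKFYVE fell by 0.15 ± 0.04 (SE; adjusted p = 0.0232), with probe sets from -0.58 to 0.12. PIKFYVE no longer passed without any 1 of 5 arrays (control replicates 1, 2 and 3 and SHCBP1 shRNA replicates 2 and 3), which leaves 1 fall in this list. It also did not pass by the median of its probe sets (-0.091, limma, Benjamini-Hochberg adjusted p = 0.138) or without those ending in _s_at or _x_at (-0.038, adjusted p = 0.568). Over all alternatives its limma adjusted p ran from 1.24e-05, with spike-in scaling, to 0.568. CALCOCO2, the receptor that galectin-8 recruits, had a 95% confidence interval of -0.18 to 0.00049.

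**Figure D4:**
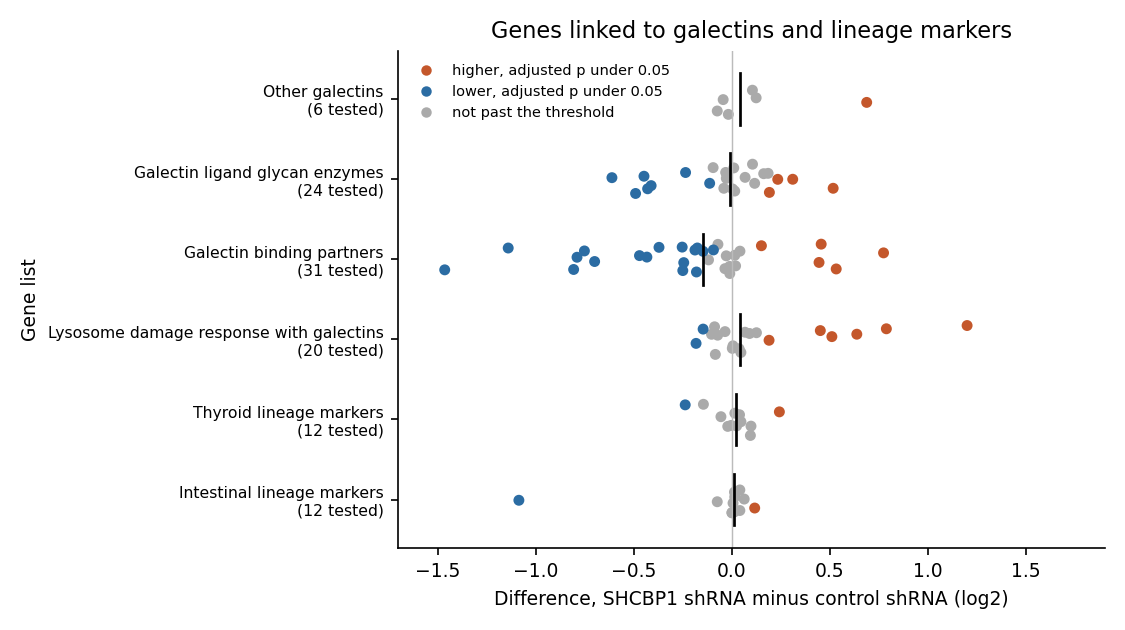
Difference between SHCBP1 shRNA and control shRNA arrays (horizontal axis, log2) for each tested gene of 6 lists (vertical axis, points spread vertically for sight only); orange and blue points passed limma's threshold as higher or lower, grey points did not, and black lines are list medians. The list of binding partners, which includes genes for proteins that sit beside them, has 17 blue and 5 orange points and a median of -0.15. Some of its genes were known to differ when the list was written, so nothing is read from this count. The medians of the other 5 lists lie within 0.05 of 0.

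Markers of the named tissues of origin were compared because the extraction text names a colorectal line where the sample titles name a thyroid one. A difference between the groups in centred values cannot show which line the cells are, so that question stays undecided. Of 12 thyroid markers 1 rose (FOXE1, 0.24 ± 0.05, SE) and 1 fell (HHEX, -0.24 ± 0.07, SE), and of 12 intestinal markers, LGALS4 among them, 1 rose (CDX2, 0.12 ± 0.03, SE) and 1 fell (KRT20, -1.09 ± 0.04, SE). In each list 16.7% were called, beside 41.0% of all genes. HHEX no longer passed without control replicate 1 or 2 or SHCBP1 shRNA replicate 2 or 3, nor CDX2 without control replicate 1 or SHCBP1 shRNA replicate 2 or 3, and FOXE1 and CDX2 turn below 0 with spike-in scaling. The part of these genes in the differences of the galectins was not tested.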

How the data were processed

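The authors deposited 1 log2 value per probe set and array, made with RMA, which corrects the background, equalises the arrays by quantiles and summarises probes, per the submitters' processing notes; its version is not given in the sources used here. The log base is taken from RMA. All 49395 probe sets have a median of 0 over the 6 arrays (within 1e-05), so they were centred before deposit, a step not given in the sources used here, and no filter on dim genes could be applied. Each gene is the mean of the probe sets that name only it; 1832 with several symbols, 2473 unnamed and 102 controls were left out. Symbols come from the platform annotation, and gene order and promoters from RefSeq.

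Differences (SHCBP1 shRNA minus control shRNA, unpaired) were fitted over 18132 genes in limma 3.58.1 (lmFit, eBayes; R 4.3.3), with Benjamini-Hochberg adjustment and a threshold of 0.05. The script was tested on simulated data with far fewer changed genes than are called here, which checks the code only. Members, lists and alternatives were chosen with earlier results of these data known. Named are the members, SHCBP1, up to 2 rises and 2 falls per list, the 5 nearest patterns, and neighbours changed by at least 0.5; genes named beyond these were chosen after their values were seen. Alternatives were other scalings, array weights, a replicate block, left-out arrays, other probe set summaries and robust moderation. Between arrays of a group the SD of the difference was 0.105 to 0.111, and no array repeated another.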

Additional observations from a re-analysis of the deposited data

How the results depend on the processing

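The direction of LGALS1, LGALS3BP and LGALS8 held under every alternative run on gene means; single probe sets of LGALS8 gave 0.062, 0.041 and 0.0060 (11719835_a_at, 11748131_a_at and 11719836_x_at), above 0. LGALS3BP and LGALS9 have no probe set left without those ending in _s_at or _x_at. Poly-A spike-in scaling shifted every gene by -0.43 and gave 1.65 for LGALS1, -0.36 for LGALS2, -0.52 for LGALS3, -1.48 for LGALS3BP, -0.58 for LGALS8 and -0.43 for LGALS9. It gave 441 genes higher and 16268 lower. In the lists it gave 5 other galectins lower, 0 glycan enzymes higher and 22 lower, 1 binding partner higher and 27 lower, 3 lysosome genes higher and 15 lower, 0 thyroid markers higher and 12 lower, 0 intestinal markers higher and 12 lower, and 1 neighbouring gene higher and 29 lower. CDX2, FOXE1 and SLC35A2 turned to -0.32, -0.19 and -0.12. Repeated quantile normalization gave 2.23 for LGALS1 and -0.94 for LGALS3BP. It was run on the centred values, so it equalised their distributions and not those of the intensities. LGALS8 was -0.12 by the median of its probe sets and -0.18 without those ending in _s_at or _x_at, where 1 lysosome gene stayed lower; the cause was not tested.

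Leaving out 1 array gave 2.07 to 2.09 for LGALS1, 0.0081 to 0.13 for LGALS2, -0.10 to -0.071 for LGALS3, -1.06 to -1.01 for LGALS3BP, -0.15 to -0.12 for LGALS8, -0.048 to 0.045 for LGALS9, 1 to 2 lysosome genes lower, 0 to 1 thyroid markers lower and 0 to 1 intestinal markers higher. The deviations of same-numbered arrays from their group means had correlations of 0.018, -0.046 and 0.067. Some arrays, but not all, correlated best with their own number. With 3 arrays per group these values cannot show whether a number marks a shared culture or batch. With the replicate number as a block 3783 genes were higher and 3309 lower, beside 3992 and 3448.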

Other observations

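Probe sets that name several galectin genes gave small differences. The 2 that name LGALS7 and LGALS7B, which encode the galectin of stratified epithelia, gave 0.023 ± 0.064 and 0.020 ± 0.064 (SE, log2). The 2 that name LGALS9B and LGALS9C gave 0.051 ± 0.061 and 0.098 ± 0.077 (SE). The pseudogene LGALS17A was at -0.019 ± 0.052 (SE). In each of these the values of the groups overlapped.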
